A study of Mus musculus with 5 samples.

Results

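The neuronal cytoskeleton was followed here through 10 genes: the neurofilament subunits Nefl, Nefm and Nefh, the tubulins Tuba1a, Tuba1b and Tubb3, the cytoplasmic actin Actb, the microtubule-associated protein Map1b and the stathmins Stmn2 and Stmn3. Members were all array probes that carry one of these symbols in the platform annotation, which gave 21 of 45281 probes for 9 of the 10 genes. No probe carried the symbol Nefh, so that gene has no value. The series compared cells sorted as parvalbumin-positive from the cerebral cortex of C57BL/6J mice. The 2 KO samples (replicates 1 and 3) came from PV-GFP; Clock-/- mice 61 and 60 days old. The 3 WT samples (replicates 1, 2 and 3) came from PV-GFP; Clock+/+ mice 61, 64 and 64 days old. Both genotypes thus carried the fluorescent reporter of parvalbumin cells, and the RNA of both was obtained at zeitgeber time 16 h, counted from lights-on. Whether a sample was 1 animal or a pool, and how the reporter and the Clock allele were made, is not in the labels. A p-value therefore weighs a difference only against the spread among these samples, which may be technical, and precision is limited by having 5 arrays.

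Neurons build their long processes on 3 kinds of filament. Microtubules are hollow polymers of alpha and beta tubulin, along which motors carry cargo. Actin filaments shape the cell cortex, the growth cone and the spine. Neurofilaments, assembled from light, medium and heavy subunits, fill the axon and set its calibre, and they are abundant in large and fast-conducting neurons, parvalbumin interneurons among them. Microtubule-associated proteins stabilise the tubulin lattice, while stathmins bind free tubulin dimers and favour disassembly. CLOCK, the protein that the KO mice lack, pairs with BMAL1 and binds the E-box letters CACGTG in gene promoters.

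The promoter windows of the 2 alpha-tubulin genes, which encode nearly the same protein, are shown as examples because CLOCK is a promoter-binding factor. The probes of this pair behaved differently between the 2 KO arrays. Both KO samples are Clock-/-, so the windows say nothing of that difference. Each window runs from 250 bases before to 50 bases after the start of the gene in RefSeq, build GRCm38.p6, minus strand, printed 5′ to 3′. Tuba1a lies at chr15:98953452-98953751 and Tuba1b at chr15:98934341-98934640. Capitals mark the general E-box form CANNTG, the only such match in each window.
Tuba1a: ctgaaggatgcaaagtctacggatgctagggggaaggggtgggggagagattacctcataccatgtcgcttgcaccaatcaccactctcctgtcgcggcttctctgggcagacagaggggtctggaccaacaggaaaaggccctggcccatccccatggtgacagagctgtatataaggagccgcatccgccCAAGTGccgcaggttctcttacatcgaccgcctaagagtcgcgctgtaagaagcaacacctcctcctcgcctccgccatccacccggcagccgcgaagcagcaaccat
Tuba1b: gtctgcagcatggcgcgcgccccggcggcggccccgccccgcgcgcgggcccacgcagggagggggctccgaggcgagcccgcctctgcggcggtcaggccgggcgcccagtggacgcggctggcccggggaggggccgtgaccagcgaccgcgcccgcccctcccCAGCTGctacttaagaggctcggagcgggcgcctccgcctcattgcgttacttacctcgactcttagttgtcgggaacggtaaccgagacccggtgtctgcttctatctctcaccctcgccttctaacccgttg
Windows were found for 5 of the 10 genes (Tuba1a, Tuba1b, Tubb3, Map1b and Stmn3). On both strands, 0 of these 5 windows held CACGTG, against 7.15% of the 32851 promoter windows available, and 0 held the variant CACGTT, against 4.68%. The available windows did not cover every gene. The general form CANNTG, which contains CACGTG, was in 4 of the 5 windows, against 72.3% of all. These are counts of letters in short windows and say nothing of binding elsewhere.

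Across all probes the arrays held little signal above background. A probe counts as detected on an array where its deposited detection p, which sets it against background on the same array, is under 0.05. That was so for 5.98% and 4.37% of probes on KO replicates 1 and 3, and for 8.11%, 6.06% and 5.93% on WT replicates 1, 2 and 3. KO replicate 3 had 1978 detected probes, below the 2264 that chance alone gives, and correlated with the other arrays at 0.751 to 0.827 across the tested probes, against 0.860 to 0.924 among the other arrays. Results are therefore given by array, and those of the tested members also without KO replicate 3. Of 8 parvalbumin interneuron markers, 6 and 5 were detected on KO replicates 1 and 3, and 7, 6 and 6 on the WT arrays. These counts do not compare levels. Pvalb itself was detected on 3 WT arrays and 1 KO array. In normalised log2 signal it read 8.22 and 7.19 on KO replicates 1 and 3, against 8.88, 9.18 and 8.79 on WT replicates 1, 2 and 3. None of the 7 excitatory neuron or 8 microglial markers was detected on any array, and at most 1 of 8 astrocyte, 1 of 7 oligodendrocyte and 1 of 8 endothelial markers was. Other interneuron markers reached 2 of 8. None of the 3 Clock probes was detected on any array, WT included, so they do not check the genotype labels.

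Cytoskeletal probes were detected at shares above those of all probes on each array, but unevenly between genes. On KO replicates 1 and 3, 10 and 12 of the 21 probes were detected (47.6% and 57.1%), and on WT replicates 1, 2 and 3 it was 14, 11 and 10 (66.7%, 52.4% and 47.6%). KO replicate 3, with the fewest detected probes of any array, thus had more detected members than KO replicate 1 or WT replicates 2 and 3. Of the 21 probes, 9 were detected on all 5 arrays: all 5 probes of Actb, 2 of 5 for Map1b, 1 of 2 for Tuba1a and the single Tubb3 probe. Another 6 were detected on no array and 3 on 1 array, WT replicate 1 each time.

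**Figure D1:**
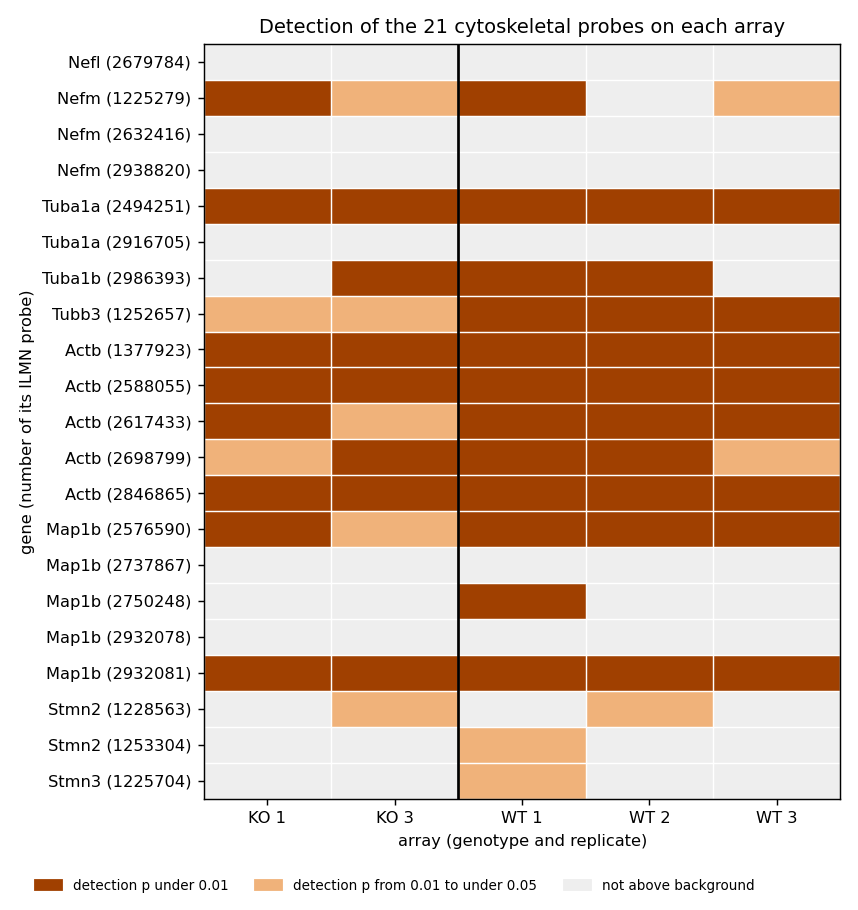
Detection of the 21 probes (rows, gene and probe number) on the 2 KO and 3 WT arrays (columns), coloured by detection p. The 5 Actb rows are filled on all 5 arrays, while the Nefl row and 2 of the 3 Nefm rows are empty.

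Probes were tested where they were detected on at least 2 of the 5 arrays. This left 12 member probes of 7 genes (Nefm, Tuba1a, Tuba1b, Tubb3, Actb, Map1b and Stmn2) among 3347 probes in all. Values below are background-corrected, quantile-normalised log2 signals, and differences are KO minus WT on that scale. A probe's level is compared between arrays and not with other probes, whose binding differs.

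No cytoskeletal gene changed between the genotypes past the threshold. With limma, adjusted over all 3347 tested probes by Benjamini-Hochberg, 0 of the 12 member probes passed at 0.05, where 0% of all tested probes did. The adjusted p-values of the 12 ran from 0.801 to 0.978. At an unadjusted p under 0.05 there was 1 of 12 (8.33%), against 5.92% of all tested probes. Of the 12, 7 were lower and 5 higher in KO, with a median difference of -0.19, beside 49.4% lower, 50.6% higher and a median of 0.0048 over all tested probes. In bulk RNA of sorted cells, fewer cells of a type and less RNA per cell cannot be told apart. Under median scaling 10 of 12 were lower, with a median of -0.61, and without background correction 7 of 12, with a median of -0.058. Without KO replicate 3 the count was 10 of 12 lower and the median -0.28, and without KO replicate 1 it was 7 of 12 and -0.14. Over all tested probes the medians of these fits, in the order given, were -0.0053, 0.0065, 0.0069 and -0.026. Both KO arrays lay below all 3 WT arrays for 2 probes (16.7%, against 10.6% of all tested) and above them for 1 (8.33%, against 11.2%).

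**Figure D2:**
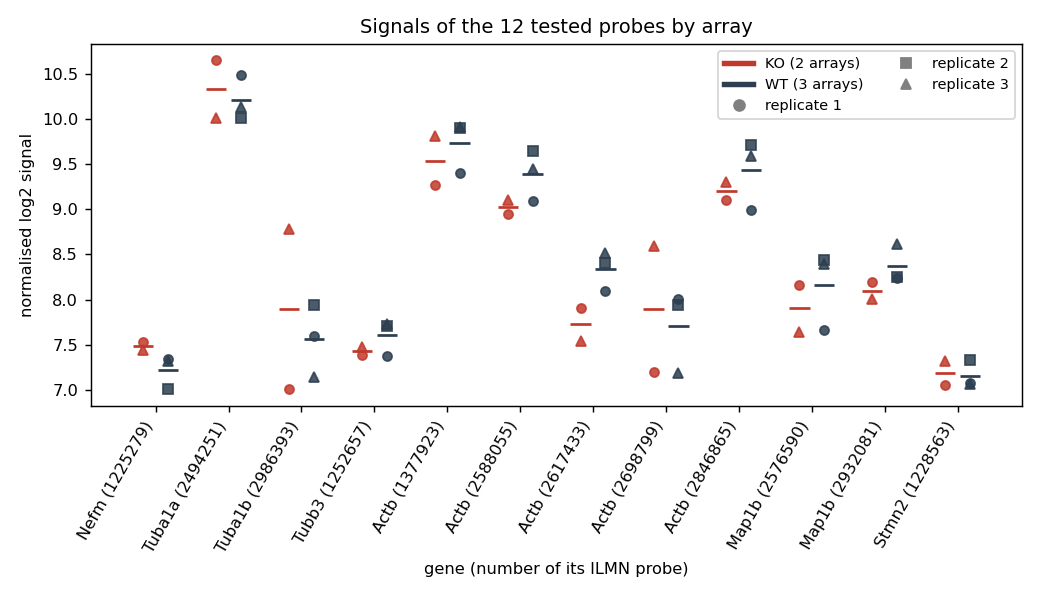
Normalised log2 signal of the 12 tested probes on each array, with KO to the left of WT, bars at group means and symbols for replicate numbers. The 2 KO arrays are furthest apart for Tuba1b (7.01 and 8.79) and for the Actb probe ILMN_2698799 (7.20 and 8.59).

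Of the neurofilament subunits only Nefm, the medium subunit, could be measured, on 1 of its 3 probes. Probe ILMN_1225279 read 7.53 and 7.44 on KO replicates 1 and 3, against 7.35, 7.01 and 7.32 on WT replicates 1, 2 and 3. Both KO arrays were above all WT arrays, KO replicate 3 by less than 0.1 over WT replicate 1, and WT replicate 2 was the array on which the probe was not above background (detection p 0.0887). Nefm averaged 7.48 ± 0.065 (SD, n = 2) in KO and 7.22 ± 0.19 (SD, n = 3) in WT, a difference of 0.26 with a 95% interval from -0.15 to 0.67 (limma adjusted p 0.801). The difference was 0.15 without WT replicate 2, and 0.16 without WT replicate 1 when the other arrays were normalised anew. Without KO replicate 3 it was 0.31. On the scaling without normalization, which lowers all tested probes by a median of 0.92, Nefm was at -0.84. The other 2 Nefm probes, ILMN_2632416 and ILMN_2938820, were detected on no array. Nefl, the light subunit on which the filament is built, had 1 probe, with raw signals of 1438 and 1315 on KO replicates 1 and 3, against 786.9, 995.7 and 1097 on WT replicates 1, 2 and 3. The arrays differ in brightness. After normalization Nefl overlapped, at 6.42 and 6.36 on KO replicates 1 and 3, against 6.39, 6.34 and 6.32 on WT replicates 1, 2 and 3. The detection p of Nefl was at least 0.844 on every array, so its level could not be told from background in either genotype.

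The alpha tubulins Tuba1a and Tuba1b, whose near-identical proteins form the dimer with beta tubulin, went opposite ways between the KO arrays. Tuba1a probe ILMN_2494251 read 10.65 and 10.01 on KO replicates 1 and 3, against 10.48, 10.01 and 10.14 on WT replicates 1, 2 and 3. KO replicate 1 was the highest of the 5 arrays and KO replicate 3 level with the lowest WT array, so the groups overlapped fully. The difference was 0.12, with an interval from -0.46 to 0.70 (limma adjusted p 0.922). It was -0.96 under median scaling, -0.20 without KO replicate 1 and 0.44 without KO replicate 3. The second Tuba1a probe, ILMN_2916705, was detected on no array, its lowest detection p being 0.0577 on WT replicate 1.

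Tuba1b probe ILMN_2986393 read 7.01 and 8.79 on KO replicates 1 and 3, against 7.60, 7.94 and 7.15 on WT replicates 1, 2 and 3. KO replicate 1 was the lowest array, where the probe was not above background (detection p 0.0919), and KO replicate 3 the highest, at detection p 0. The 2 KO arrays lay 1.78 apart, the widest gap among the 12 probes, and the WT arrays spanned 0.80. Tuba1b averaged 7.90 ± 1.26 (SD, n = 2) in KO and 7.56 ± 0.40 (SD, n = 3) in WT, a difference of 0.33 with an interval from -0.83 to 1.49 (limma adjusted p 0.879). Without KO replicate 3 the difference was -0.56, without KO replicate 1 it was 1.22, and under median scaling it was -0.31. Tubulin genes have near-identical copies, so a probe may also have bound other family members.

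Tubb3, the beta tubulin typical of neurons, had the smallest range across the 5 arrays of the 3 tested tubulin probes, 0.36 on the log2 scale. Its probe ILMN_1252657 read 7.38 and 7.47 on KO replicates 1 and 3, against 7.38, 7.71 and 7.73 on WT replicates 1, 2 and 3. The KO arrays lay near WT replicate 1 and below the other 2 WT arrays. Tubb3 averaged 7.43 ± 0.065 (SD, n = 2) in KO and 7.61 ± 0.20 (SD, n = 3) in WT, a difference of -0.18 with an interval from -0.60 to 0.24 (limma adjusted p 0.827). Without WT replicate 1 the difference was -0.29, or -0.091 when the other arrays were normalised anew, and without background correction it was -0.050. Without KO replicate 3 it was -0.22.

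**Figure D3:**
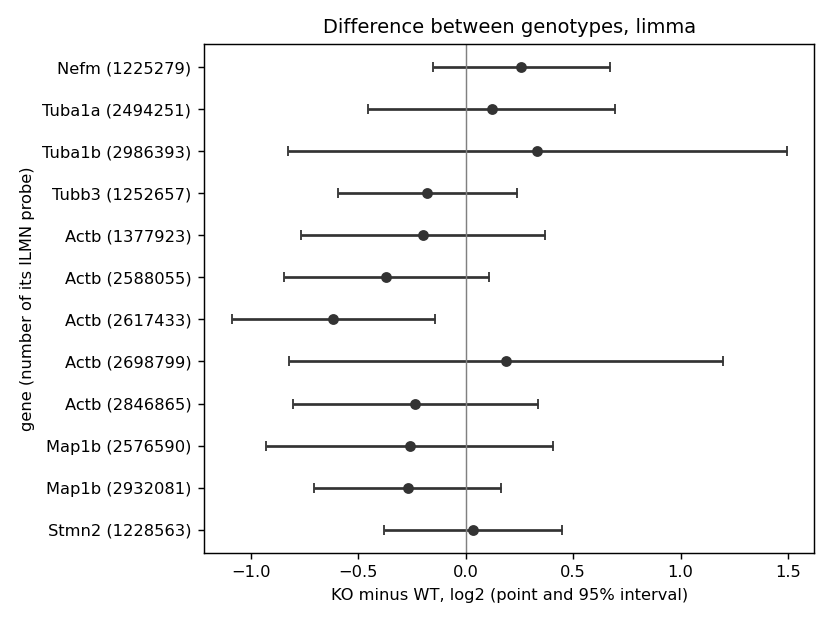
KO minus WT log2 difference of the 12 tested probes, with points at the limma estimate and bars at the 95% interval. The interval of 11 of the 12 covers 0, and only that of Actb probe ILMN_2617433 lies below it.

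Actb, the cytoplasmic actin that is often used as a reference gene, had 5 probes, all detected on all 5 arrays, of which 4 were lower and 1 higher in KO. Probe ILMN_2617433 read 7.91 and 7.54 on KO replicates 1 and 3, against 8.10, 8.40 and 8.52 on WT replicates 1, 2 and 3. Both KO arrays were below all WT arrays. It averaged 7.72 ± 0.26 (SD, n = 2) in KO and 8.34 ± 0.22 (SD, n = 3) in WT, a difference of -0.62 with an interval from -1.09 to -0.14 that is not adjusted for the number of probes (limma adjusted p 0.801). The difference was -0.16 without background correction, -0.37 on the authors' processed values and -0.28 without WT replicate 1 when the other arrays were normalised anew. Without KO replicate 3 it was -0.43. In raw signals the same probe read 3487 and 3002 on KO replicates 1 and 3, against 2620, 3615 and 3981 on WT replicates 1, 2 and 3, where WT replicate 1 is the dimmest array as a whole (median raw signal 1121, against 1687 to 1991 on the others).

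Probes ILMN_2588055, ILMN_2846865 and ILMN_1377923 of Actb shared another pattern. ILMN_2588055 read 8.95 and 9.10 on KO replicates 1 and 3, against 9.09, 9.65 and 9.45 on WT replicates 1, 2 and 3. ILMN_2846865 read 9.10 and 9.30 on KO replicates 1 and 3, against 8.99, 9.72 and 9.59 on the WT arrays. ILMN_1377923 read 9.27 and 9.81 on KO replicates 1 and 3, against 9.41, 9.90 and 9.91 on the WT arrays. In all 3, WT replicates 2 and 3 were the highest arrays and KO replicate 1 and WT replicate 1 were both low. The groups overlapped, with differences of -0.37, -0.23 and -0.20 in the order given (limma adjusted p 0.801, 0.839 and 0.862), and the last was 0.076 without KO replicate 1. With the other arrays normalised anew, ILMN_2588055 was at -0.60 without WT replicate 1 and at -0.21 without WT replicate 2, and ILMN_2846865 was at -0.53 and -0.082 in the same order. Without KO replicate 3, and with the other values kept, ILMN_2588055, ILMN_2846865 and ILMN_1377923 were at -0.45, -0.33 and -0.47.

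Probe ILMN_2698799 of Actb ran against these. It read 7.20 and 8.59 on KO replicates 1 and 3, against 8.01, 7.94 and 7.18 on WT replicates 1, 2 and 3. KO replicate 3 was the highest array and KO replicate 1 among the 2 lowest, as for Tuba1b. The difference was 0.19 with an interval from -0.82 to 1.20 (limma adjusted p 0.930). Without KO replicate 3 it was -0.51, which puts all 5 Actb probes on the lower side, and without KO replicate 1 it was 0.88, while under median scaling it was -0.52. By root-mean-square difference of the array-centred log2 values over 5 arrays, the nearest of the other 11 member probes to it was Tuba1b (0.20), followed by Stmn2 (0.45), and neither was another Actb probe. ILMN_2588055 and ILMN_2846865 were by contrast each other's nearest (0.10), and both had Tubb3 as their second nearest (0.13 each).

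**Figure D4:**
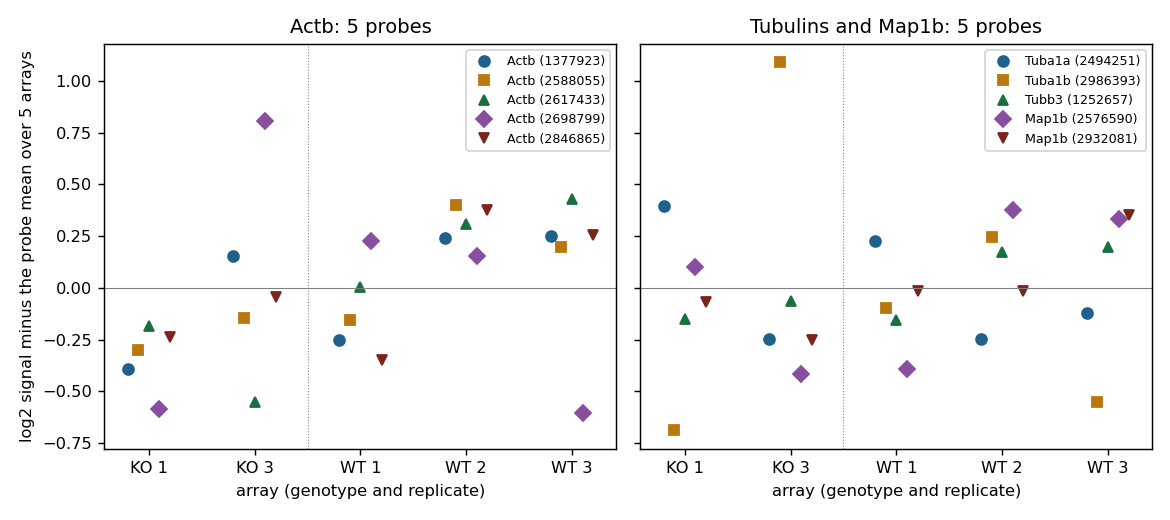
Array-centred log2 signals of the 5 Actb probes (left) and of the tested tubulin and Map1b probes (right) on each array, KO to the left of the dotted line and WT to its right. On KO replicate 3 the Actb probe ILMN_2698799 and Tuba1b stand above all the others shown.

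Map1b, a large protein that stabilises axonal microtubules, was measured on 2 of its 5 probes, both on the lower side in KO. Probe ILMN_2932081 read 8.19 and 8.01 on KO replicates 1 and 3, against 8.24, 8.25 and 8.61 on WT replicates 1, 2 and 3. Both KO arrays were below all WT arrays, KO replicate 1 by a small margin. It averaged 8.10 ± 0.13 (SD, n = 2) in KO and 8.37 ± 0.21 (SD, n = 3) in WT, a difference of -0.27 with an interval from -0.70 to 0.17 (limma adjusted p 0.801). Without background correction the difference was -0.075, under median scaling -0.70, without WT replicate 3 it was -0.15 and without KO replicate 3 -0.18.

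The second Map1b probe, ILMN_2576590, read 8.16 and 7.64 on KO replicates 1 and 3, against 7.67, 8.43 and 8.39 on WT replicates 1, 2 and 3. The groups overlapped through WT replicate 1, which was nearly as low as KO replicate 3. The difference was -0.26 with an interval from -0.93 to 0.41 (limma adjusted p 0.848), and without KO replicate 3 it was -0.0018. Of the other 3 Map1b probes, 2 were detected on no array and ILMN_2750248 on WT replicate 1 alone (detection p 0.00748).

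The stathmins were near background. Stmn2, which in neurons binds tubulin dimers in the growth cone, had a tested probe, ILMN_1228563, at 7.06 and 7.32 on KO replicates 1 and 3, against 7.07, 7.33 and 7.06 on WT replicates 1, 2 and 3. It was detected on 1 array of each genotype, KO replicate 3 and WT replicate 2, and the groups overlapped fully, with a difference of 0.034 and an interval from -0.38 to 0.45 (limma adjusted p 0.978), a value that turned to -0.096 without KO replicate 3. The second Stmn2 probe and the single Stmn3 probe were detected on WT replicate 1 alone, at detection p 0.0171 and 0.0150. Stmn3 raw signals were 2461 and 2262 on KO replicates 1 and 3, against 1911, 2644 and 2591 on the WT arrays, and no fold is given for either probe.

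Set against the size of the differences, the spread within a genotype was large. The WT arrays spanned more than the KO minus WT difference for 11 of the 12 probes, ILMN_2617433 of Actb being the exception. The gap between the 2 KO arrays exceeded that difference for 6. KO replicate 3 was above KO replicate 1 for 7 of the 12 probes. The 95% interval reached from 0.41 to 1.16 to either side of the estimate on the log2 scale.

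Other genes of the same machinery were taken from 9 lists of cytoskeletal genes. Of 159 listed genes on the array, 53 had a tested probe, 64 probes in all, and 0 passed limma's test (3 at an unadjusted p under 0.05). Of the 64, 45 were lower in KO (70.3%, against 49.4% of all tested probes), with a median difference of -0.14. Without KO replicate 3 the count was 40 of 64, where the median difference over all tested probes was 0.0069. Some had entered through the WT arrays alone: 16 of the 64 (25%) were below background on both KO arrays and 0 on all WT arrays, against 14.4% and 1.28% of all tested probes. Among the 48 probes detected in both genotypes 29 were lower in KO (60.4%, against 42.3% of all such probes). The detection filter counted arrays of either genotype, and WT had more arrays than KO. Entry through WT alone was therefore easier than entry through KO alone, so the contrast of 16 and 0 is not by itself a trait of KO. The parts that this imbalance and the low detection on KO replicate 3 have in these counts were not tested.

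Other tubulins stood at 9 lower and 1 higher of 10 tested probes, with a median of -0.25, and 4 of the 10 were below background on both KO arrays. Tubb4a, a beta tubulin, read 6.89 and 6.79 on KO replicates 1 and 3, against 7.16, 7.38 and 7.19 on WT replicates 1, 2 and 3. All 3 WT arrays and no KO array detected it. Its WT mean was 1.02-fold above a bound set by the lowest detected signal of each KO array (limma adjusted p 0.801). For Tubb5 and Tuba4a, likewise below background in KO, the WT mean was 1.05-fold and 1.03-fold above such a bound. Probes below background in KO were tested only because WT arrays detected them. Neither these bounds nor the counts of lower probes that include them, here and in the lists below, are evidence of a decrease. Tubb4b read 7.29 and 7.31 in KO, against 7.71, 7.68 and 7.33 in WT, a difference of -0.27 (limma adjusted p 0.801).

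Motors of microtubule transport stood at 10 lower and 2 higher of 12 tested probes, median -0.25, with 5 below background on both KO arrays. Those 5 were tested through the WT arrays alone and are included in the counts and the median. Among the 12 were Dync1h1, the heavy chain of cytoplasmic dynein, its intermediate chain Dync1i2, the neuronal kinesin Kif5a and the kinesin light chain Klc1. Dync1h1, Dync1i2 and Kif5a were below background in KO, with WT means 1.01-fold, 1.13-fold and 1.09-fold above the same kind of bound. Klc1 differed by -0.34, and the limma adjusted p was 0.801 for each of these genes. Actin-binding proteins stood at 11 lower and 5 higher of 16, median -0.12, and 4 of the 16 were below background on both KO arrays. For Tmsb4x and Capza1, both below background in KO, the WT mean did not exceed the bound. Wasf1, which drives branched actin assembly, read 7.22 and 7.10 on KO replicates 1 and 3, against 8.19, 8.07 and 7.30 on WT replicates 1, 2 and 3, a difference of -0.69 (limma adjusted p 0.801). Both KO arrays were below all WT arrays, with WT replicate 3 close to them.

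Other microtubule-associated proteins and stathmins were split, 8 lower and 5 higher of 13, with 2 below background on both KO arrays. Map6, which protects microtubules from cold, differed by 0.45, Map1lc3a by 0.56, Map1lc3b by -0.61 and Stmn1 by -0.34, each with a limma adjusted p of 0.801. Map1lc3a and Map1lc3b, the autophagosome proteins, differed in opposite directions, and KO replicate 3 stood apart in both. Map1lc3a read 7.30 and 8.40 on KO replicates 1 and 3, against 7.20, 7.46 and 7.20 in WT. Map1lc3b read 8.40 and 7.34 on KO replicates 1 and 3, against 8.57, 8.16 and 8.73 in WT. Tubulin and actin folding genes (2 lower and 2 higher, with the chaperonin subunit Tcp1 at 0.30), spectrins and ankyrins (2 and 2, with Ank2 at 0.33 and Epb41l3 at 0.38), septins (2 and 1, with 1 below background on both KO arrays) and intermediate filaments (1 and 1, with Ina at -0.14) had few tested probes. None of the 6 other actins and actin-related genes on the array was tested.

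The genes whose array patterns came closest to the members' were found by the same root-mean-square difference over the 5 arrays. Nearest to the Nefm probe were Ppm1n (0.057), Ankle1 (0.068) and Hnrnpa3 (0.071). Nearest to Tuba1a were Tmem256 (0.063), Pam16 (0.088) and Spag6 (0.093). Nearest to the Actb probe of highest mean signal, ILMN_1377923, were Opn1sw (0.075), Ndfip1 (0.082) and the actin-capping adducin gene Add1 (0.092), which belongs to the actin-binding list. Nearest to Map1b probe ILMN_2932081 were Sirpa (0.059), Hnrnpa2b1 (0.067) and Vti1b (0.070). With 5 arrays such closeness is a description of these samples.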

How the data were processed

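Total RNA of 5 samples (2 KO, 3 WT) was, per the labels' protocols, extracted with Trizol, amplified (NuGEN Ovation PicoSL WTA V2) and biotin-labelled for single-colour Illumina arrays. The authors deposited raw intensity values on a linear scale beside a detection p-value, per the file headers, over 45281 probes, and a second table of processed intensity values. From the values, the latter are background-subtracted and share 1 distribution. GenomeStudio was used, per the submitters' processing notes; which settings it had is not given in the sources used here.

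Probe symbols came from the supplied platform annotation (34885 probes with 1 symbol, 18 with several, 10378 with none), updated for the other genes through Entrez numbers to RefSeq (GRCm38.p6). In R 4.3.3, limma 3.58.1 was applied to the raw intensities. The neqc step fits normexp by detection p, adds an offset of 16, normalises quantiles and takes log2. It was followed by lmFit and eBayes over probes with detection p under 0.05 on at least 2 of 5 arrays, two-sided, Benjamini-Hochberg. Where no array of a group detects a probe, its fold is a lower bound set by the lowest detected signal of each array. The code was tested on simulated data. The members and lists, and the rule for named genes (all member probes, up to 4 examples of smallest p in each list, and the 3 nearest patterns for the probe of highest mean signal in each role group), were chosen with earlier results of these data known; some examples were left out of the text.

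Alternatives covered background correction, normalization, the processed values of the authors (floor of 1, log2), the detection filter, the variance model, the replicate number as a block and leaving out each sample, with the other arrays' values kept or normalised anew. The replicate numbers 1 and 3 occur in both genotypes, and no label ties them to a litter or day.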

Additional observations from a re-analysis of the deposited data

How the results depend on the processing

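No member probe passed under any of the 8 other settings or the 10 fits without a sample. In 3 of these settings (no filter, detection on all 5 arrays, trend and robust eBayes) a probe's difference cannot change. Under the others, 154 of 178 values of the 12 member probes kept their direction and 24 reversed. These counts include the replicate block, whose differences repeat those of the fit without WT replicate 2. Among the 12, 5 probes never reversed (Tubb3, Actb ILMN_2588055, ILMN_2617433 and ILMN_2846865, and Map1b ILMN_2932081). Under median scaling, which equalised array medians over the tested probes, 10 of 12 member probes were lower, their median moved to -0.61, and Tuba1a (-0.96), Tuba1b (-0.31) and Actb ILMN_2698799 (-0.52) reversed. Without normalization all 12 were lower, with a median of -1.52 beside -0.92 for all tested probes; Nefm (-0.84), Tuba1a (-1.87), Tuba1b (-1.22), Actb ILMN_2698799 (-1.43) and Stmn2 (-0.83) reversed, and the smallest adjusted p of a member was 0.0639. The cause was not tested.

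Fits without 1 sample gave 0 to 48 called probes over all tested, the calls coming only without KO replicate 1 (48 with values kept, 27 with arrays normalised anew), where KO replicate 3 alone stands for KO and is assumed to vary like the WT arrays. Members called stayed at 0, members lower ranged from 7 to 10 and their median from -0.34 to -0.093. With the values kept, and then with the remaining arrays normalised anew, the ranges were Tuba1a from -0.20 to 0.44 and from -0.19 to 0.44, Tuba1b from -0.56 to 1.22 and from -0.59 to 1.33, Actb ILMN_1377923 from -0.47 to 0.076 and from -0.48 to 0.075, Actb ILMN_2698799 from -0.51 to 0.88 and from -0.54 to 0.96 (-0.10 without WT replicate 3), Map1b ILMN_2576590 from -0.52 to -0.0018 and from -0.57 to 0.00030, Stmn2 from -0.096 to 0.16 and from -0.013 to 0.18 (-0.0039 without WT replicate 1). With arrays normalised anew, Stmn2 missed the detection filter without WT replicate 2 and without KO replicate 3, so its range leaves these fits out. They tested 11 member probes, of which 7 and 8 were lower, and gave both ends of the range of the members' median. Over both kinds of fit, the probes that kept their direction ranged as follows: Nefm from 0.15 to 0.35, Tubb3 from -0.29 to -0.091, Actb ILMN_2588055 from -0.60 to -0.21, ILMN_2846865 from -0.53 to -0.082 and ILMN_2617433 from -0.89 to -0.28, and Map1b ILMN_2932081 from -0.39 to -0.15. The count of other cytoskeletal probes lower in KO ranged from 40 to 46 of 64, an alternative chosen after seeing the data.

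With the replicate block, 7 of 12 member probes were lower, their median was -0.11 and 0 probes were called; as WT replicate 2 is alone in its block, these differences equal those without it. The 2 shared numbers are too few to show pairing, same-numbered samples correlating at 0.20 and 0.13 in their deviations from the group means. Of the 21 member probes, 9 missed the detection filter.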
